A study of Salmo salar with 72 samples.

Results

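The transcripts described here encode immediate early transcription factors and the phosphatases that act beside them, in Atlantic salmon (Salmo salar) hepatocytes exposed to arsenic compounds. They were chosen by annotation, as the genes whose deposited name contains transcription factor AP-1, transcription factor jun, c-fos, fos-related antigen, fosB, early growth response, Krueppel-like factor, immediate early response or dual specificity protein phosphatase. Of the 25830 genes of the deposited table, 92 matched. They were 13 jun family genes, 9 fos family genes, 10 early growth response (EGR) genes, 5 immediate early response (IER) genes, 27 Krueppel-like factors (KLF), 16 dual specificity phosphatases (DUSP) of MAP kinases, 11 other dual specificity phosphatases and ier3ip1. The last encodes an interaction partner of an immediate early protein and matched by its name only. One match among the Krueppel-like factors, tieg3, is named as a transforming growth factor-beta-inducible early growth response protein. Many names recur on several gene copies, and values of near-identical copies are uncertain because the counting could split their reads.

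Primary liver cells of 6 male fish were cultured on 3-dimensional scaffolds and exposed for 48 h, and each library is 1 culture of 1 fish. Arsenite (AsIII), the trivalent inorganic oxyanion, was given at 3, 10, 30 and 100 µM and arsenobetaine (AsB), a methylated organic form, at 10, 50, 100 and 500 µM, with 6 libraries in every group. Arsenate (AsV), the pentavalent inorganic oxyanion, was given at 10, 50 and 100 µM in cells of fish 1 to 3, with 3 libraries in every group. Each compound had its own control group without arsenic, which makes 72 libraries in 14 groups. The titles give the compound and dose of each library, and they were followed although other label text names an arsenosugar and other arsenite doses. That text also speaks of individual plates per compound. Replicates of a group are cells of different fish, so their spread includes that between animals.

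Library depth was 30.9 to 86.4 M reads with a median of 38.6 M. Summed over 13 hepatocyte markers, normalized counts had a median of 3.64e+06 in AsIII controls and medians of 3.64e+06 to 4.51e+06 at the 4 AsIII doses. The summed medians in AsIII controls were 604 for 3 leukocyte genes, 442 for 5 endothelial genes, 296 for 5 biliary genes, 1042 for 8 stellate or fibroblast genes and 119 for 8 erythroid genes. The erythroid sum had medians of 498 at 3 µM, 136 at 10 µM, 35.7 at 30 µM and 41 at 100 µM AsIII. The leukocyte sum had medians of 556, 461, 340.1 and 367 at the same doses. The part of these other cells in the results was not tested, and in bulk libraries fewer cells of a type and less RNA per cell cannot be told apart. Some libraries stood apart by how many of the 25830 genes they listed at 0. Those of AsIII at 100 µM in fish 1 (1694 genes) and at 30 µM in fish 5 (1396 genes) did so against a median of 208.5 for AsIII, and the 3 libraries of exposed fish 3 cells of the AsV set (1069 to 1729 genes) against a median of 249.5 for AsV. The AsB libraries had a median of 1608 such genes.

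Jun and Fos proteins pair through leucine zippers to form AP-1, which binds DNA near genes of growth and stress responses, and Jun proteins are activated by the stress kinase JNK. EGR and Krueppel-like factors are zinc finger proteins that bind GC-rich DNA. Many of these genes are transcribed within minutes of a stimulus, before any new protein is needed, and DUSP proteins of the MAP kinase class end the signal by removing phosphate from ERK, JNK and p38. In mammalian cells arsenite is known to activate the stress-activated MAP kinases. The cultures here were sampled after 48 h, long after such a first wave.

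In arsenite-exposed cells more of the immediate early genes rose than fell at every dose, and the EGR, jun and IER groups rose furthest at 30 µM. Of the 92 genes, 43 rose and 22 fell at 3 µM, 48 rose and 12 fell at 10 µM, 55 rose and 4 fell at 30 µM, and 50 rose and 5 fell at 100 µM, by limma with Benjamini-Hochberg adjustment over all genes tested and a threshold of 0.05. The share of all tested genes that passed was already large, at 54.5% at 3 µM, 47.2% at 10 µM, 41.6% at 30 µM and 39.9% at 100 µM. Rises made up 29.5%, 26.8%, 23.9% and 22.6% of all genes at the 4 doses in the same order, and falls 25%, 20.5%, 17.7% and 17.3%. The median log2 change of the 92 genes was 0.63 at 3 µM, 0.62 at 10 µM, 1.20 at 30 µM and 0.81 at 100 µM, where that of all genes lay between 0.04 and 0.06. Changes are on the log2(normalized count + 1) scale, exposed over control, with their standard error (SE). All 92 passed the filter on low values in the AsIII libraries, and 10 of them, 5 of the EGR group among them, had a control median under 10. Genes so low in controls could pass the filter only through higher libraries, and the other 82 had 40 rises and 22 falls at 3 µM, 42 and 12 at 10 µM, 47 and 4 at 30 µM, and 43 and 5 at 100 µM.

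The rises and falls did not run alike through the roles. At 30 µM all 13 jun family genes and all 10 EGR genes rose, as did 7 of 9 fos family genes, 4 of 5 IER genes and 11 of 16 MAP kinase phosphatases, while 8 of 27 Krueppel-like factors rose and 3 fell. Of these jun and EGR calls, that of the jun-D copy LOC106573907 was lost in 6 of 13 alternatives. That of the EGR2 copy LOC106609975 was lost in the fit over 72 libraries (adjusted p = 0.207). Both genes were named after their values were seen. The jun-B copies LOC106564570 and LOC106607086 had control medians under 10. So did the EGR genes LOC100194495, LOC106585589, LOC106592202, LOC106609975 and LOC106611930. Such genes could pass the filter only through higher libraries, and the counts of 13 and 10 rest in part on them. At 3 µM the jun family had 9 rises and 2 falls, the fos family 6 rises, the EGR group 2 rises and 1 fall, the IER group 4 rises, the MAP kinase phosphatases 12 rises and 3 falls, and the Krueppel-like factors 8 rises and 9 falls. The 11 other phosphatases had 2 rises and 6 falls at 3 µM, and 2 rises and 1 fall at 30 µM. Across the 4 doses 31 genes rose at all of them and 2 fell at all of them, 61 had rises only, 18 had falls only, 6 had both and 7 had neither. Among genes that rose, the highest rise was at 3 µM for 15, at 10 µM for 14, at 30 µM for 31 and at 100 µM for 7. Neither these patterns nor the doses of the highest rise were counted over all genes, so no share can be set beside them. Scaling by library size moved the median of all genes to -0.21 at 3 µM and -0.24 at 10 µM, and that of the 92 genes to 0.37 and 0.33. Rises and falls were then 39 and 25 at 3 µM and 42 and 16 at 10 µM, set against 21.9% rises and 36.1% falls among all genes at 3 µM, and 16.9% rises and 35.2% falls at 10 µM. The scaled values gave 49 rises with 8 falls at 30 µM (19% and 23.8% of all genes), and 45 rises with 7 falls at 100 µM (19.5% and 21.2%). With the fish as a block, 30 µM had 57 rises with 8 falls (28.7% and 22.2% of all genes). In the same fit 100 µM had 51 rises with 8 falls (27.7% and 21.9%). No named member changed direction under library-size scaling or with the fish as a block where either fit called it. Changes of direction without a call were not counted. Scaling removed 7 calls of named members, which are given with the genes, and the block removed 0 and added 3.

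**Figure D1:**
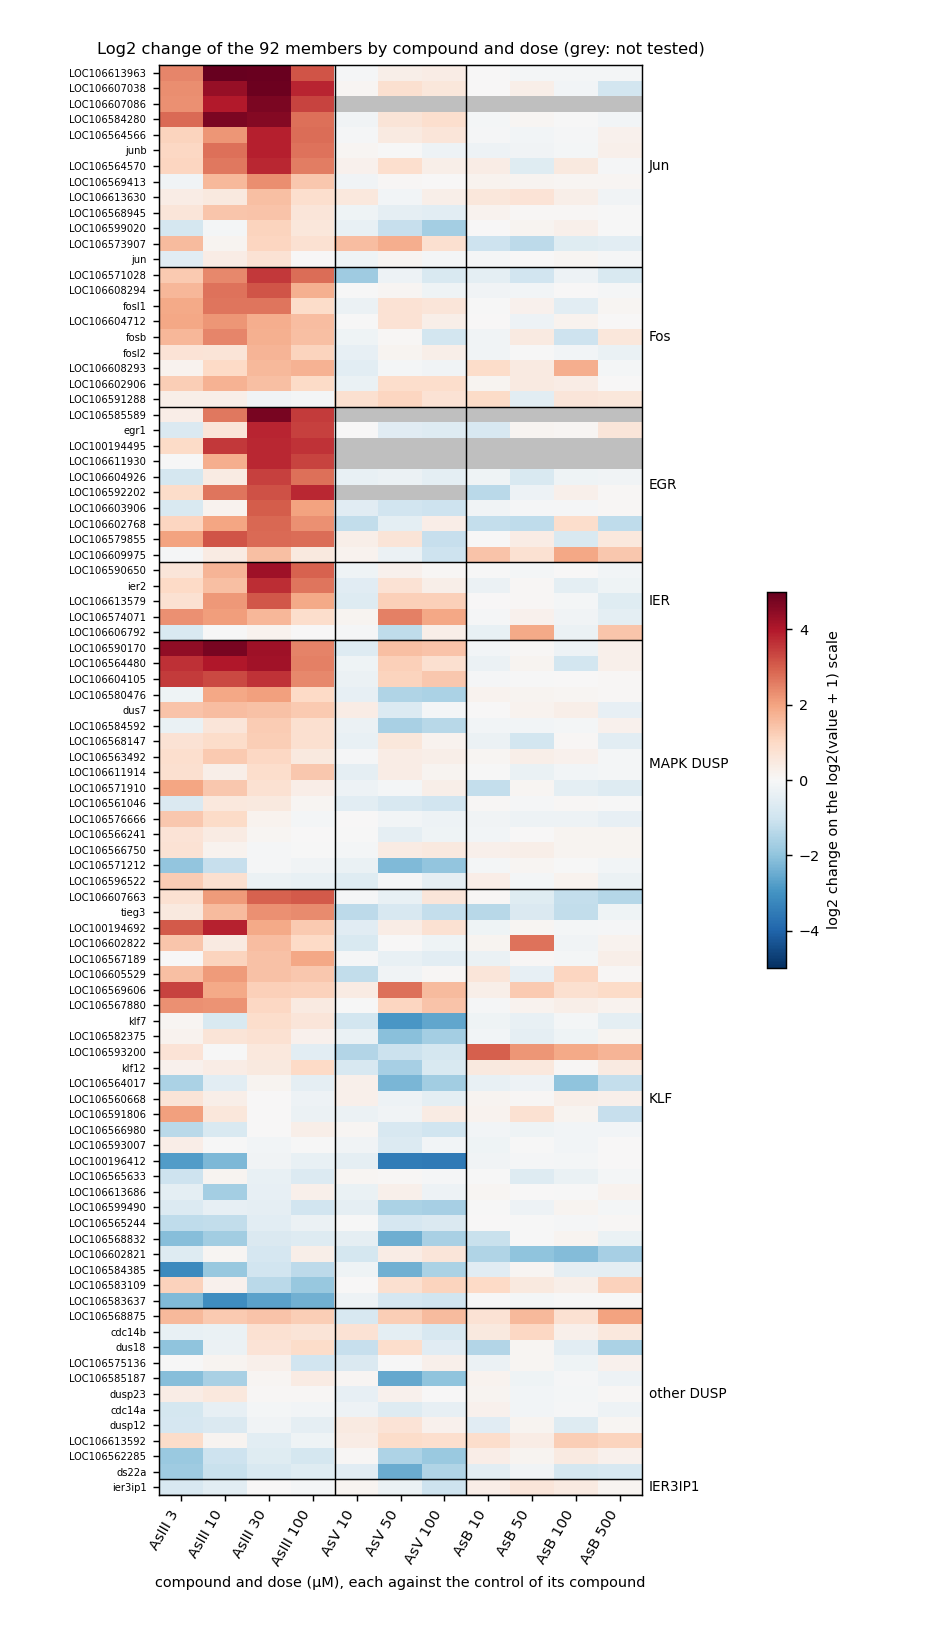
Log2 change against the control of the same compound for the 92 genes (lines, grouped by role) in the 11 dose comparisons (columns, AsIII, AsV and AsB, low to high dose), with colour for the change and grey for genes not tested. The AsIII columns are mostly above 0 for the jun, fos, EGR and IER groups and mixed for the Krueppel-like factors, and no gene passed the test in the AsB columns.

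The jun family held the highest rise of the 92 genes, and its copies did not move alike. JUN is the best known AP-1 subunit, and 4 copies carry the AP-1 name. The RefSeq symbol jun belongs to LOC106613963, while the gene deposited as jun has the RefSeq symbol LOC106600411. Here jun means the gene deposited under that name. Both LOC106613963 and LOC106584280 rose at every dose with their highest levels at 10 and 30 µM, whereas jun fell at 3 µM and LOC106569413 rose only from 10 µM on. For LOC106613963, the lowest, median and highest normalized counts of the 6 libraries were 1011, 1345 and 1720.3 in controls, 5016, 7854 and 8675 at 3 µM and 33992, 42835 and 48409.5 at 10 µM. The 30 µM libraries had 34427, 42900.4 and 48197 and the 100 µM libraries 9693, 11724 and 15661. No exposed library overlapped the controls, and the libraries at 10 and 30 µM stood above those at 3 and 100 µM. The changes were 2.45, 4.97, 4.94 and 3.15 at 3, 10, 30 and 100 µM (SE 0.13), higher in 6 of 6 fish at each dose (highest adjusted p = 6.13e-17). LOC106584280 stood at 1674, 2332 and 2589 in controls, 12186, 15939 and 17650.5 at 3 µM and 53459, 57361 and 61007 at 10 µM. Its values were 43192, 52739.6 and 60624 at 30 µM and 12270.2, 14626 and 18153 at 100 µM, again with no overlap between exposed and control libraries. Its changes were 2.85, 4.72, 4.60 and 2.77 at 3, 10, 30 and 100 µM (SE 0.11) (highest adjusted p = 1.66e-18).

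The copy LOC106569413 did not pass at 3 µM and rose at 10 µM and above. Its normalized counts were 1605, 1847 and 1985 in controls, 1427, 1619 and 1807 at 3 µM and 5069, 5643 and 6264 at 10 µM. At the higher doses it stood at 7319, 8561 and 12372 (30 µM) and 4037, 4548 and 5823 (100 µM), so that the 3 µM libraries overlapped the controls and those of the higher doses did not. The changes at 10, 30 and 100 µM were 1.61 ± 0.11, 2.31 ± 0.11 and 1.35 ± 0.11 (highest adjusted p = 8.65e-12). At 3 µM the change was -0.19 ± 0.11 with adjusted p = 0.131, lower in 6 of 6 fish, and it passed with the fish as a block, with edgeR and under library-size scaling (block adjusted p = 0.034; 0.000383 to 0.297 across the alternatives). The gene named jun had 2845, 3668 and 4312 in controls, 1793, 2481 and 3283 at 3 µM and 3536, 4807 and 5419.6 at 10 µM. Libraries at 30 µM had 4369, 6034 and 7548, and those at 100 µM 2689, 3731 and 4148. This copy was lower at 3 µM in 6 of 6 fish and higher at 30 µM in 6 of 6 fish, with changes of -0.56 ± 0.14 (adjusted p = 0.00106) and 0.73 ± 0.14 (adjusted p = 9.44e-05), and at 100 µM it stood level with controls (0.00 ± 0.14). Its rise of 0.35 ± 0.14 at 10 µM (adjusted p = 0.0393) was lost with edgeR, with DESeq2, under library-size scaling, in the fit over 72 libraries and without any one of fish 2 to 6 (adjusted p 0.000461 to 0.796 across the alternatives).

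All 5 jun-B copies rose at all 4 doses. JUNB is an AP-1 subunit that in mammals can restrain JUN as well as activate genes of its own. LOC106607038 had normalized counts of 25.8, 70.1 and 135 in controls, 248, 319.5 and 481 at 3 µM and 925, 1261 and 2023 at 10 µM. It had 1263, 2106 and 2624 at 30 µM and 761, 919 and 1077 at 100 µM. Exposed and control libraries did not overlap at any dose, and the values at 30 µM were the highest. The changes were 2.33, 4.36, 4.90 and 3.82 at 3, 10, 30 and 100 µM (SE 0.28), higher in 6 of 6 fish throughout (highest adjusted p = 4.93e-08). The gene named junb had 199.9, 291 and 568 in controls, 481, 659 and 838 at 3 µM and 2107, 2151 and 2412 at 10 µM. The 30 µM libraries had 4127, 4609 and 6381 and the 100 µM libraries 1722, 2128 and 2394, with overlap between exposed and control libraries at 3 µM only. It changed by 1.02, 2.77, 3.89 and 2.72 at 3, 10, 30 and 100 µM (SE 0.18) (highest adjusted p = 9.11e-06). LOC106564566 stood at 458, 951 and 1659 in controls, 1696, 2038 and 2506 at 3 µM and 3568, 4483 and 4751 at 10 µM. Its values were 12104, 12978 and 18195 at 30 µM and 5685, 6290.5 and 7826 at 100 µM, and it too was highest at 30 µM. Its changes were 1.13, 2.19, 3.90 and 2.79 at 3, 10, 30 and 100 µM (SE 0.20) (highest adjusted p = 2.56e-05).

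The remaining jun-B copies had few reads. LOC106607086 had medians of 1.9 in controls and 12.3, 34.9, 60 and 28.8 at the 4 doses, and its changes were 2.30, 3.98, 4.71 and 3.38 at 3, 10, 30 and 100 µM (SE 0.45) (highest adjusted p = 6.12e-05). LOC106564570 had medians of 8.25 in controls and 21.2, 61.1, 151.5 and 67.2 at the 4 doses and changes of 1.09, 2.64, 3.77 and 2.54 at 3, 10, 30 and 100 µM (SE 0.33). Its call at 3 µM (adjusted p = 0.00571, higher in 4 of 6 fish) was lost in the fit over 72 libraries and without fish 6 (0.83, adjusted p = 0.0522; 0.00123 to 0.103 across the alternatives). Of the 4 jun-D copies, which encode the AP-1 subunit most constant in resting mammalian cells, 2 rose and 1 fell at 3 µM and all 4 rose at 30 µM. The rise of LOC106573907 at 30 µM (adjusted p = 0.0452) was lost under library-size scaling, in the fit over 72 libraries and without any one of fish 3 to 6 (0.0228 to 0.421 across the alternatives). Its rise at 3 µM was lost in the fit over 72 libraries (0.158). The one that reversed was LOC106599020, with normalized counts of 167.1, 194 and 222 in controls, 53.5, 109 and 181 at 3 µM and 119.6, 181 and 262 at 10 µM. At the higher doses it stood at 324, 419.6 and 516 (30 µM) and 229.6, 285 and 344 (100 µM). It changed by -0.88, -0.11, 1.12 and 0.55 at 3, 10, 30 and 100 µM (SE 0.21), lower in 6 of 6 fish at 3 µM (adjusted p = 0.000722) and higher in 6 of 6 at 30 µM (adjusted p = 8.3e-05). Its call at 100 µM (adjusted p = 0.0383) was lost with edgeR, under library-size scaling, in the fit over 72 libraries and without any one of fish 1, 3, 4, 5 and 6 (0.00285 to 0.108 across the alternatives).

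**Figure D2:**
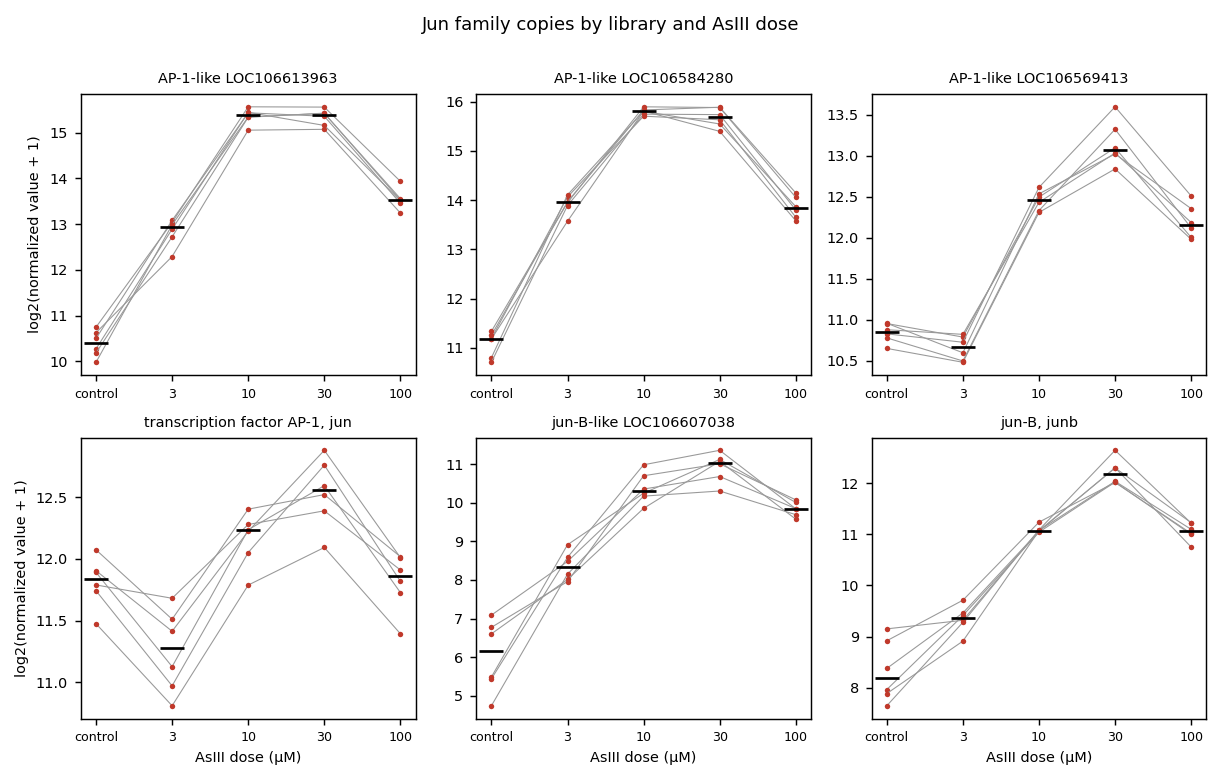
Levels of 6 jun family genes (LOC106613963, LOC106584280, LOC106569413, jun, LOC106607038 and junb) in AsIII controls and at 3, 10, 30 and 100 µM, as log2(normalized count + 1), with 1 point per library, lines joining libraries of the same fish and bars at the medians. LOC106613963 and LOC106584280 are highest at 10 and 30 µM, LOC106607038 and junb at 30 µM, and the gene deposited as jun dips at 3 µM.

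Of the 9 fos family genes 6 rose at all 4 doses, and c-Fos differed widely between the fish in controls. FOS and FOSB pair with Jun proteins and are among the fastest genes to respond to growth signals, and fos-related antigens 1 and 2 (FOSL1, FOSL2) follow later and last longer. The c-Fos copy LOC106608294 had normalized counts of 359, 1601 and 3129 in controls, 2397, 3759 and 4603 at 3 µM and 6552, 7429 and 9383 at 10 µM. Libraries at 30 µM had 6918, 10959 and 12497, and those at 100 µM 2396, 3949 and 7351. The control libraries spanned a wide range and overlapped those at 3 and 100 µM, while all libraries at 10 and 30 µM lay above them. Its changes were 1.67, 2.73, 3.16 and 1.77 at 3, 10, 30 and 100 µM (SE 0.42), higher in 6 of 6 fish at each dose (highest adjusted p = 0.00157). In controls the 6 fish, 1 to 6, had 3129, 2549.7, 359, 473, 2552 and 652 in the AsIII set and 2453, 2403, 439.5, 612, 2537 and 454 in the AsB set. Fish 1, 2 and 5 were the high ones and fish 3, 4 and 6 the low ones in both sets.

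Another c-Fos copy, LOC106571028, stood at 14.8, 134 and 481 in controls, 143, 272 and 499 at 3 µM and 406, 600.5 and 874 at 10 µM. It had 861, 1362 and 1829 at 30 µM and 458, 676 and 1302 at 100 µM, and only the libraries at 30 µM were free of overlap with controls. It rose by 2.42 ± 0.57, 3.54 ± 0.57 and 2.77 ± 0.57 at 10, 30 and 100 µM (highest adjusted p = 0.00111), where the calls at 10 and 100 µM were lost in the fit over 72 libraries (adjusted p up to 0.109 at 10 µM, lowest 1.93e-05 across the alternatives). At 3 µM the change was 1.31 ± 0.57 with adjusted p = 0.0561, and it passed without fish 1 and with the fish as a block (block adjusted p = 0.00609; 0.00609 to 0.402 across the alternatives). LOC106608293 had medians of 12.4 in controls and 18.8, 23.3, 37.4 and 37.3 at the 4 doses, with overlap at every dose. Its change of 1.73 ± 0.69 at 100 µM (adjusted p = 0.0454, higher in 6 of 6 fish) was lost with edgeR, under library-size scaling, in the fit over 72 libraries and without any one of fish 1, 3, 4, 5 and 6 (0.0044 to 0.284 across the alternatives). At 30 µM it changed by 1.60 ± 0.69 with adjusted p = 0.0614, against 0.00768 with the fish as a block (0.00768 to 0.322 across the alternatives). The copy LOC106591288 was the fos family gene with no call, at medians of 46.6 in controls and 53.7, 53.2, 40.9 and 38.8 at the 4 doses and changes between -0.18 and 0.31.

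The fos-related antigens rose at every dose. The gene fosl1 had normalized counts of 154.6, 262 and 339 in controls, 806, 888 and 1089 at 3 µM and 1404, 1509.8 and 1827 at 10 µM. The 30 µM libraries had 1266, 1492 and 1819 and the 100 µM libraries 361, 434 and 699, and exposed and control libraries overlapped at no dose. It changed by 1.91, 2.66, 2.66 and 0.92 at 3, 10, 30 and 100 µM (SE 0.15) (highest adjusted p = 1.39e-05). LOC106604712, the other fos-related antigen 1 copy, changed by 1.94, 2.20, 1.83 and 1.54 at 3, 10, 30 and 100 µM (SE 0.17) from a control median of 561 (highest adjusted p = 8.92e-09). Both fos-related antigen 2 genes rose too, fosl2 most at 30 µM (1.68 ± 0.13) and LOC106602906 most at 10 µM (1.73 ± 0.15). These 2 genes were named after their values were seen. The call of fosl2 at 10 µM was lost under library-size scaling (adjusted p = 0.0557). The gene fosb had medians of 102.7 in controls and 253, 481, 295 and 275 at the 4 doses and overlapped controls at every dose, although it was higher in 6 of 6 fish throughout. Its changes were 1.66, 2.44, 1.78 and 1.49 at 3, 10, 30 and 100 µM (SE 0.49) (highest adjusted p = 0.0176). The call at 3 µM was lost with edgeR and in the fit over 72 libraries (2.15e-05 to 0.117 across the alternatives). At 30 µM the call was lost in that fit (1.43e-05 to 0.121 across the alternatives). The call at 100 µM was lost with edgeR, in that fit and without fish 3 or fish 6 (0.000134 to 0.2135 across the alternatives).

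Most EGR genes rose at the higher doses only. EGR1 is a zinc finger activator induced by ERK signalling through serum response factor, and none of its 4 copies rose at 3 or 10 µM while all 4 rose at 30 and 100 µM. LOC106603906 had normalized counts of 775, 1539 and 1761 in controls, 437, 866 and 1087 at 3 µM and 862, 1711 and 2602 at 10 µM. Its values were 4993, 12359 and 18582 at 30 µM and 3245, 5983 and 8488 at 100 µM. The lowest library at 30 µM stood above the highest at 10 µM, and the 3 µM libraries overlapped the lower part of the controls. The changes were -0.77, 0.17, 3.04 and 2.03 at 3, 10, 30 and 100 µM (SE 0.31), higher in 6 of 6 fish at 30 µM (adjusted p = 1.1e-08) and at 100 µM (adjusted p = 8.48e-06). At 3 µM it was lower in 6 of 6 fish (adjusted p = 0.0382), a call that was lost without any one of fish 1, 2, 5 and 6 (4.73e-05 to 0.118 across the alternatives). Between 10 and 30 µM it rose by 2.88 ± 0.31 (adjusted p = 7.04e-08). The gene named egr1 stood at 10.6, 32.9 and 72.9 in controls, 4.69, 26.3 and 43.9 at 3 µM and 8.67, 58.2 and 138 at 10 µM. At the higher doses it stood at 192, 513 and 699.8 (30 µM) and 174.3, 376 and 552 (100 µM), with no overlap with controls at 30 and 100 µM. It changed by 3.80 ± 0.57 at 30 µM (adjusted p = 4.86e-06) and 3.43 ± 0.57 at 100 µM (adjusted p = 2.32e-05), against -0.71 ± 0.57 at 3 µM and 0.62 ± 0.57 at 10 µM, which did not pass.

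Copies LOC106604926 and LOC106611930 had the same order of doses. LOC106604926, named after its values were seen, had medians of 227 in controls and 150.1, 314, 2488 and 1447 at the 4 doses and changed by 3.41 ± 0.42 at 30 µM (adjusted p = 3.01e-07). LOC106611930 had medians of 2.95 in controls and 1.69, 7.64, 50.2 and 31.9 at the 4 doses, so its change of 3.76 ± 0.78 at 30 µM rests on few reads in controls. EGR2, EGR3 and EGR4 are close relatives that bind the same GC-rich element, and their salmon copies were at few reads in controls. LOC100194495, an EGR2 copy, had 0, 3.27 and 4.24 in controls, 2.25, 4.81 and 8.03 at 3 µM and 8.42, 37.9 and 75.7 at 10 µM. Libraries at 30 µM had 4.38, 50.6 and 133, and those at 100 µM 18.8, 33.2 and 61.2. At 10 and 100 µM the libraries lay above the controls, while the lowest at 30 µM (4.38) stood next to the highest control (4.24). With so few reads in controls this copy could pass the filter only through higher libraries. It changed by 3.53 ± 0.62 at 10 µM (adjusted p = 1.94e-05). The EGR2 copy LOC106592202 rose by 3.77 ± 0.82 at 100 µM (adjusted p = 0.000429) and by 2.68 ± 0.82 at 10 µM, where the call was lost without fish 2 (2.15, adjusted p = 0.0681; 0.000697 to 0.0681 across the alternatives). LOC106585589, an EGR3 copy, changed by 2.65 ± 0.62 at 10 µM, 4.74 ± 0.62 at 30 µM and 3.49 ± 0.62 at 100 µM (highest adjusted p = 0.000717), from medians of 2.28 in controls and 2.55, 17.1, 68.7 and 32.8 at the 4 doses. The other EGR3 copy, LOC106579855, and the EGR4 copy LOC106602768 were the EGR genes that rose at all 4 doses. Their changes at 10 µM were 3.15 ± 0.64 for LOC106579855 (adjusted p = 0.000189) and 1.99 ± 0.34 for LOC106602768 (adjusted p = 1.49e-05). The call of LOC106602768 at 10 µM was lost in the fit over 72 libraries (0.0573). At 3 µM both calls were lost in the fit over 72 libraries and without fish 3, and that of LOC106602768 also without fish 6 (adjusted p 0.000749 to 0.116 for LOC106579855 and 0.000828 to 0.314 for LOC106602768 across the alternatives).

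Among the IER genes, LOC106590650 and ier2 rose most at 30 µM and the IER5 copy LOC106574071 at 3 µM. IER2 is a nuclear immediate early protein, and IER5 a related protein that in mammals acts with heat shock factor. LOC106590650 had normalized counts of 336, 387 and 563 in controls, 471, 615 and 895 at 3 µM and 1083, 1430.0 and 1493 at 10 µM. It had 6390.4, 7798 and 8536 at 30 µM and 2800.3, 3195 and 3534 at 100 µM. The 3 µM libraries overlapped the controls, and from 10 µM on the groups did not. It changed by 0.60, 1.71, 4.24 and 2.95 at 3, 10, 30 and 100 µM (SE 0.13) (highest adjusted p = 0.000287), and between 10 and 30 µM it rose by 2.53 ± 0.13 (adjusted p = 2.62e-15). The gene named ier2 changed by 0.99, 1.49, 3.67 and 2.69 at 3, 10, 30 and 100 µM (SE 0.16) (highest adjusted p = 4.21e-06) from a control median of 333. The IER5 copy LOC106574071 stood at 70, 107 and 124 in controls, 405, 483 and 626 at 3 µM and 344, 416 and 542 at 10 µM. The 30 µM libraries had 252, 339.7 and 359.7 and the 100 µM libraries 138, 183 and 232, highest at 3 µM and without overlap with controls at any dose. Its changes were 2.29, 2.08, 1.68 and 0.87 at 3, 10, 30 and 100 µM (SE 0.15) (highest adjusted p = 2.73e-05), higher in 6 of 6 fish throughout. The other IER5 copy, LOC106613579, changed by 0.76, 2.16, 3.10 and 1.90 at 3, 10, 30 and 100 µM (SE 0.18) (highest adjusted p = 0.000612) and was highest at 30 µM. One IER2 copy, LOC106606792, had no call at any dose and medians of 9.44 in controls and 5.32, 10, 20.1 and 11.6 at the 4 doses; it was named after its values were seen.

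**Figure D3:**
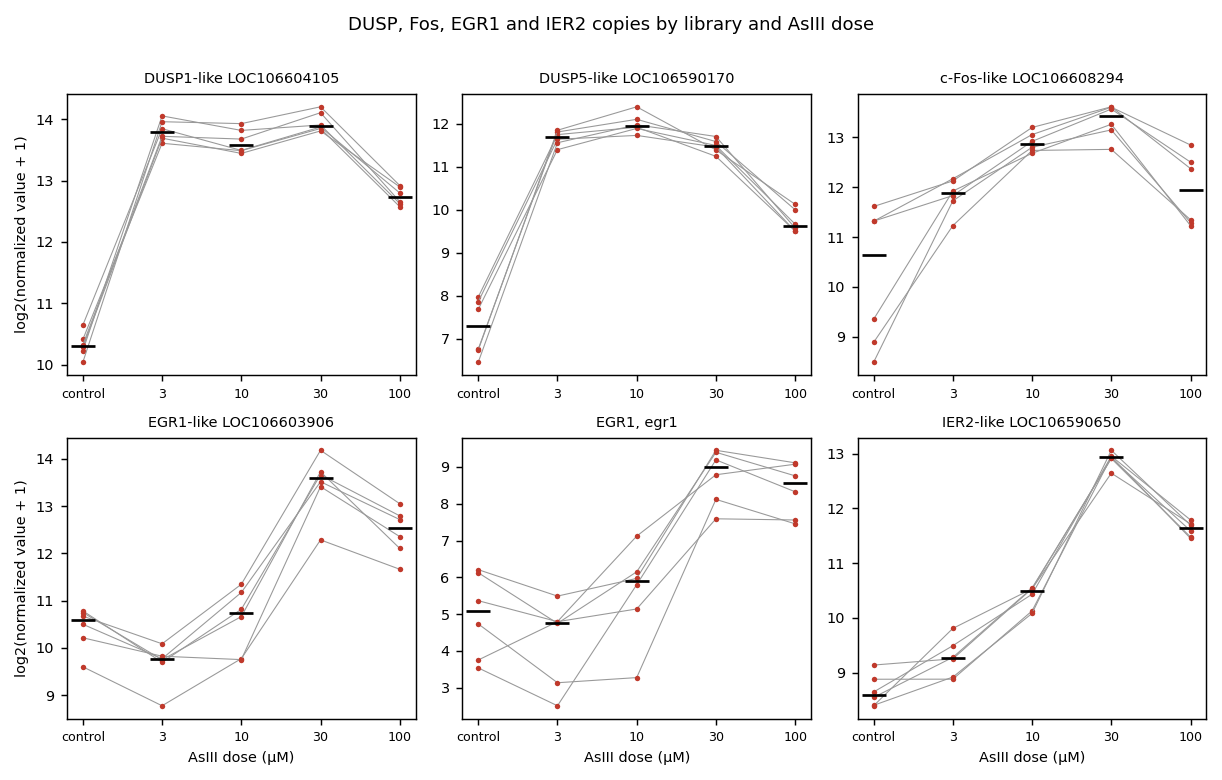
Levels of LOC106604105 (DUSP1), LOC106590170 (DUSP5), LOC106608294 (c-Fos), LOC106603906 and egr1 (EGR1) and LOC106590650 (IER2) in AsIII controls and at 3, 10, 30 and 100 µM, as log2(normalized count + 1), with 1 point per library, lines joining libraries of the same fish and bars at the medians. The phosphatases are well above controls at 3 µM, and the EGR1 and IER2 copies step up between 10 and 30 µM.

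Of the 16 phosphatases of MAP kinases, 12 rose and 3 fell at 3 µM, and both DUSP5 copies and a DUSP1 copy stood above controls at every dose. DUSP1 is a nuclear phosphatase of p38 and JNK, and DUSP5 a nuclear phosphatase of ERK. The DUSP1 copy LOC106604105 had normalized counts of 1053, 1266 and 1602 in controls, 12478, 14099.8 and 16991 at 3 µM and 11129.9, 12296 and 15574 at 10 µM. Its values were 14339.8, 15166 and 18828 at 30 µM and 6098, 6789.8 and 7747 at 100 µM. No exposed library came near the controls, and the libraries at 3, 10 and 30 µM overlapped one another. It changed by 3.49, 3.31, 3.63 and 2.42 at 3, 10, 30 and 100 µM (SE 0.10), higher in 6 of 6 fish at each dose (highest adjusted p = 2.63e-18). The DUSP5 copy LOC106590170 stood at 86.5, 155.7 and 249 in controls, 2694, 3309 and 3684 at 3 µM and 3389.9, 3946 and 5375 at 10 µM. At the higher doses it stood at 2419, 2844 and 3330.4 (30 µM) and 722, 785 and 1115 (100 µM), with every exposed library above every control. Its changes were 4.42, 4.76, 4.24 and 2.48 at 3, 10, 30 and 100 µM (SE 0.19) (highest adjusted p = 1.12e-11). LOC106564480, the other DUSP5 copy, changed by 3.64, 4.01, 4.18 and 2.52 at 3, 10, 30 and 100 µM (SE 0.18) (highest adjusted p = 7.6e-13) from a control median of 89.2. The other DUSP1 copy, LOC106611914, rose most at 100 µM (1.34 ± 0.14, adjusted p = 5.36e-09). At 10 µM its change was 0.29 ± 0.14 (adjusted p = 0.0881, or 0.0242 with the fish as a block).

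The DUSP10 copy and both DUSP16 copies were called at 3 and 10 µM and not at 30 or 100 µM, whereas both DUSP4 copies and dus7, a DUSP7 copy, rose at all 4 doses. DUSP10, DUSP16 and DUSP8 act mainly on JNK and p38 in mammals. The DUSP10 copy LOC106571212 had normalized counts of 691, 868 and 1359 in controls, 157.9, 228 and 418 at 3 µM and 282, 442 and 569.6 at 10 µM. Libraries at 30 µM had 403, 986 and 1201, and those at 100 µM 493, 818 and 1447, with all libraries at 3 and 10 µM below all controls. It was lower in 6 of 6 fish at 3 µM (-1.99 ± 0.26, adjusted p = 1.53e-07) and 10 µM (-1.15 ± 0.26, adjusted p = 0.000556), against -0.08 ± 0.26 at 30 µM and -0.17 ± 0.26 at 100 µM, which did not pass. Both DUSP16 copies, LOC106576666 and LOC106596522, rose at 3 µM (1.34 ± 0.18 and 1.27 ± 0.17) and 10 µM (0.97 ± 0.18 and 0.82 ± 0.17) and had no call at 30 or 100 µM. Of the 4 DUSP7 copies, which encode a cytoplasmic ERK phosphatase, all rose at 3 µM and 1 at 100 µM. The rise of the DUSP7 copy LOC106566241 at 3 µM (adjusted p = 0.00518) was lost under library-size scaling (0.000692 to 0.0849 across the alternatives). The DUSP4 copies encode a nuclear phosphatase of ERK and JNK. LOC106563492 changed by 0.84, 1.31, 1.04 and 0.49 at 3, 10, 30 and 100 µM (SE 0.15), and its call at 100 µM (adjusted p = 0.0102) was lost in the fit over 72 libraries and without fish 4 (0.00644 to 0.0808 across the alternatives). LOC106568147 changed by 0.71, 0.93, 1.22 and 0.78 at 3, 10, 30 and 100 µM (SE 0.22). Its calls at 3, 10 and 100 µM were lost in the fit over 72 libraries, and that at 3 µM also under library-size scaling (0.00101 to 0.185 at 3 µM, 7.39e-05 to 0.0883 at 10 µM and 0.00168 to 0.184 at 100 µM across the alternatives). These DUSP4, DUSP16 and DUSP7 copies were singled out after their values were seen. The DUSP2 copy LOC106580476 was at medians of 358 in controls and 283, 1415, 1535 and 778 at the 4 doses and rose by 1.95 ± 0.37 at 10 µM (adjusted p = 8.03e-05) and 2.06 ± 0.37 at 30 µM (adjusted p = 5.52e-05).

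Both DUSP8 copies fell at 3 µM and rose at higher doses. LOC106584592 had medians of 894 in controls and 683, 1375, 2285 and 1474 at the 4 doses and changed by -0.35, 0.59, 1.27 and 0.80 at 3, 10, 30 and 100 µM (SE 0.15). The fall at 3 µM was seen in 6 of 6 fish (adjusted p = 0.044), and it was lost in the fit over 72 libraries and without any one of fish 2 to 6 (0.000433 to 0.0986 across the alternatives). At 10 µM the call was lost under library-size scaling (0.28, adjusted p = 0.0924; 2.33e-05 to 0.0924 across the alternatives), and at 30 µM the adjusted p was 2.13e-08. LOC106561046 had medians of 732 in controls and 451, 1039.8, 1034 and 871 at the 4 doses and changed by -0.71, 0.51, 0.50 and 0.08 at 3, 10, 30 and 100 µM (SE 0.17). It was lower in 6 of 6 fish at 3 µM (adjusted p = 0.000532). The rises at 10 µM (adjusted p = 0.0121) and 30 µM (adjusted p = 0.0166) were lost under library-size scaling and without fish 3, and that at 30 µM also without fish 6 (adjusted p 0.00056 to 0.292 at 10 µM and 0.000867 to 0.0804 at 30 µM across the alternatives).

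Copies of one and the same Krueppel-like factor moved in opposite directions. KLF6 is a widely expressed zinc finger factor, and 1 of its 4 copies rose at 3 µM while 3 fell. LOC106567880 had normalized counts of 299, 345 and 447 in controls, 1384, 1788 and 1995 at 3 µM and 1229, 1702 and 2088 at 10 µM. It had 549, 741 and 994 at 30 µM and 325, 482 and 693 at 100 µM, and the controls overlapped with the 100 µM libraries only. It changed by 2.27, 2.23, 1.05 and 0.43 at 3, 10, 30 and 100 µM (SE 0.16) (highest adjusted p = 0.0295). The call at 100 µM was lost under library-size scaling, in the fit over 72 libraries and without any one of fish 1, 2, 3 and 5 (0.00438 to 0.134 across the alternatives). LOC100196412 stood at 1308, 1862 and 2466 in controls, 149, 247 and 488 at 3 µM and 261, 350.4 and 608 at 10 µM. The 30 µM libraries had 629.6, 1652 and 3443 and the 100 µM libraries 616, 1479 and 3513, below all controls at 3 and 10 µM and spread widely around them at 30 and 100 µM. Its changes were -2.79 ± 0.40 at 3 µM (adjusted p = 1.31e-06) and -2.24 ± 0.40 at 10 µM (adjusted p = 4.63e-05), lower in 6 of 6 fish, against -0.19 ± 0.40 and -0.36 ± 0.40 at 30 and 100 µM, which did not pass. LOC106568832, with medians of 44.6 in controls and 10.5, 15.9, 28 and 29.8 at the 4 doses, changed by -2.11 ± 0.44 at 3 µM, and LOC106599490 by -0.67 ± 0.26 at 3 µM and -0.94 ± 0.26 at 100 µM; both were named after their values were seen. The call of LOC106599490 at 3 µM was lost without fish 1 or fish 3 (adjusted p 2.65e-05 to 0.0915 across the alternatives).

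KLF15, a mammalian regulator of gluconeogenesis and amino acid use in fasting liver, had 5 copies, of which 4 fell and 1 rose at 3 µM. Among these the fall of LOC106565633 (adjusted p = 0.027) was lost without fish 1, 2 or 5 (0.00169 to 0.101 across the alternatives). That copy was named after its values were seen. LOC106583637 had normalized counts of 409.8, 575 and 951 in controls, 85.6, 113 and 178.8 at 3 µM and 40.7, 69.3 and 115 at 10 µM. Its values were 68.6, 89.6 and 122 at 30 µM and 54.1, 128 and 181 at 100 µM, and no exposed library reached the lowest control. It changed by -2.21, -3.11, -2.69 and -2.42 at 3, 10, 30 and 100 µM (SE 0.27) (highest adjusted p = 2.1e-08), lower in 6 of 6 fish, and it was 1 of the 2 genes of the 92 that fell at all 4 doses. LOC106583109 stood at 52, 89.6 and 174.5 in controls, 134, 218 and 294 at 3 µM and 79, 103.3 and 148 at 10 µM. At the higher doses it stood at 22.7, 32.6 and 58.8 (30 µM) and 14.8, 21.7 and 43 (100 µM). It was higher in 6 of 6 fish at 3 µM (1.14 ± 0.29, adjusted p = 0.00114) and lower in 6 of 6 at 30 µM (-1.34 ± 0.29, adjusted p = 0.000331) and 100 µM (-1.91 ± 0.29, adjusted p = 2.91e-06). The copy with the most reads, LOC106565244, had medians of 2306 in controls and 988, 1011, 1570.2 and 2036 at the 4 doses and passed the test below controls at 3, 10 and 30 µM, with a change of -1.29 ± 0.11 at 3 µM; it was named after its values were seen.

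All 3 genes deposited under the KLF11 name rose at 10, 30 and 100 µM. In the fit over 72 libraries the calls of LOC106607663 at 10 µM (adjusted p = 0.0629) and LOC100194692 at 100 µM (0.0506) were lost. KLF10 and KLF11 are induced by transforming growth factor-beta in mammals. LOC100194692 had normalized counts of 66.8, 101.04 and 187 in controls, 576, 970.2 and 1059.8 at 3 µM and 978, 1618 and 1827 at 10 µM. Libraries at 30 µM had 281, 402 and 569.9, and those at 100 µM 168.2, 283 and 334, with its highest values at 10 µM. It changed by 3.07, 3.84, 1.90 and 1.30 at 3, 10, 30 and 100 µM (SE 0.23) (highest adjusted p = 3.05e-05). LOC106607663 and LOC106567189 had their highest changes at 100 µM instead, 3.08 ± 0.39 (adjusted p = 1.43e-07) and 1.95 ± 0.27 (adjusted p = 1.15e-06) in that order, with medians of 20.5 in controls and 29.8, 70.4, 124 and 153.2 at the 4 doses for LOC106607663. The related tieg3 changed by 2.29 ± 0.49 at 30 µM (adjusted p = 0.000318) and 2.35 ± 0.49 at 100 µM (adjusted p = 0.000261). KLF2, known in vertebrates for its role in blood vessel lining, had 2 copies that differed in sign at 10 µM. LOC106569606 was at 3.93, 7.81 and 11 in controls, 45.5, 99.8 and 132 at 3 µM and 17.1, 32.7 and 49.5 at 10 µM. It had 5.29, 19.4 and 33.4 at 30 µM and 6.89, 15.5 and 73.2 at 100 µM and changed by 3.39 ± 0.46 at 3 µM (adjusted p = 1.44e-07) and 1.90 ± 0.46 at 10 µM. The call at 10 µM was lost in the fit over 72 libraries (0.000185 to 0.128 across the alternatives). LOC106569606 also changed by 1.175 at 30 µM (adjusted p = 0.0381) and 1.159 at 100 µM (adjusted p = 0.0422). Each of these calls was lost in 7 of 13 alternatives. With a control median of 7.81 this copy could pass the filter only through higher libraries. LOC106613686, named after its values were seen, was at medians of 872 in controls and 625, 282, 779.7 and 1160.2 at the 4 doses and changed by -1.71 ± 0.23 at 10 µM (adjusted p = 5.12e-07). The 5 endothelial markers had a summed median of 636 at 10 µM, against 442 in controls, and their part in the KLF2 values was not tested. KLF9, a glucocorticoid-responsive factor in mammals, was represented by LOC106584385 at medians of 54.5 in controls and 5.36, 13.7, 26.7 and 26.9 at the 4 doses, and changed by -3.17 ± 0.50 at 3 µM (adjusted p = 2.44e-06, lower in 6 of 6 fish).

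**Figure D4:**
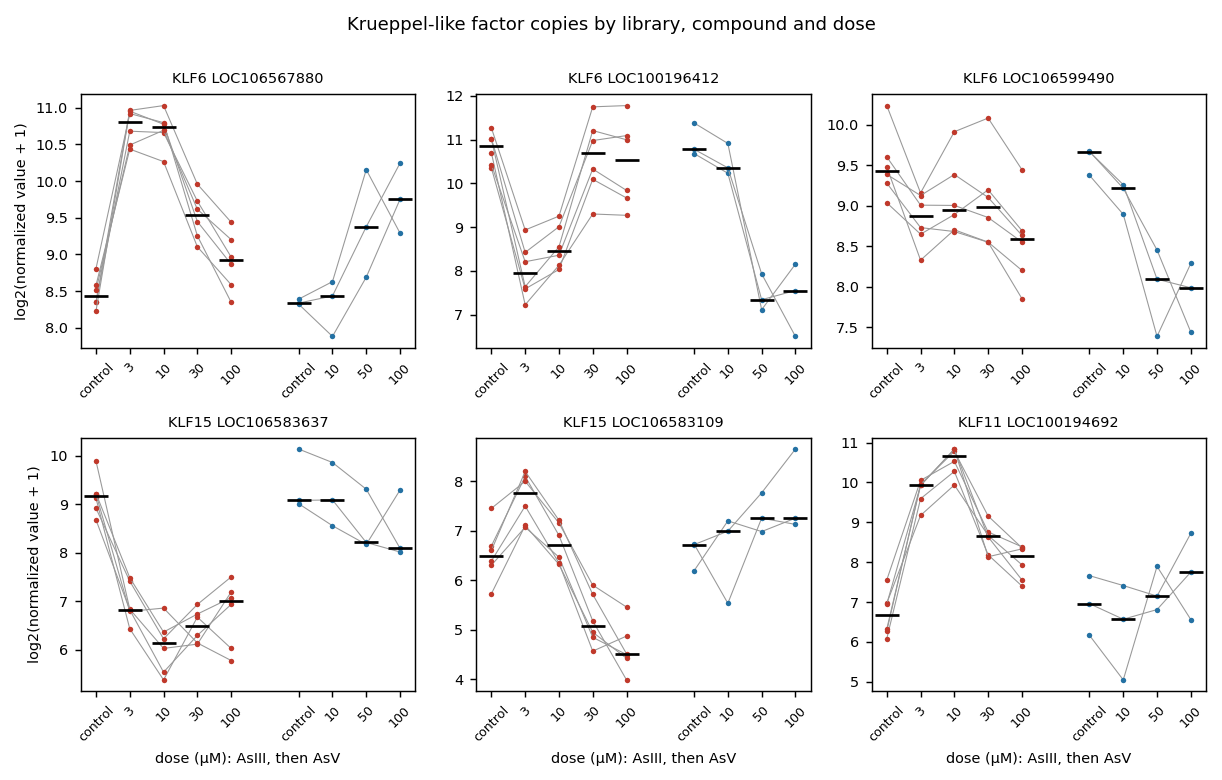
Levels of 6 Krueppel-like factors (KLF6 copies LOC106567880, LOC100196412 and LOC106599490, KLF15 copies LOC106583637 and LOC106583109, and KLF11 copy LOC100194692) as log2(normalized count + 1) in controls and doses of AsIII (red) and then AsV (blue), with 1 point per library, lines joining libraries of the same fish and bars at the medians. LOC106567880 is above and LOC100196412 below its controls at 3 and 10 µM AsIII and at 100 µM AsV.

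The other dual specificity phosphatases mostly fell at 3 µM. The DUSP22 copy LOC106562285, which encodes an atypical phosphatase of the JNK pathway, had normalized counts of 245, 296 and 372 in controls, 52.9, 76.5 and 120.3 at 3 µM and 105, 130.1 and 233 at 10 µM. The 30 µM libraries had 177.2, 193 and 209 and the 100 µM libraries 138, 159.5 and 190.2, with all exposed libraries below all controls. It changed by -1.85, -1.05, -0.62 and -0.88 at 3, 10, 30 and 100 µM (SE 0.19) (highest adjusted p = 0.00793). The other DUSP22 gene, ds22a, changed by -1.78 ± 0.33 at 3 µM (adjusted p = 3.08e-05) and -1.12 ± 0.33 at 10 µM (adjusted p = 0.00606, lost in the fit over 72 libraries; 0.00065 to 0.135 across the alternatives). CDC14 phosphatases counter mitotic kinases in yeast. LOC106585187 was deposited as CDC14A-like, while its RefSeq symbol is cdc14b. It was at 283, 331 and 746 in controls, 58.6, 98.7 and 110.3 at 3 µM and 70, 138 and 199 at 10 µM. Its values were 263, 420.0 and 567 at 30 µM and 338, 509 and 689.7 at 100 µM, below controls without overlap at 3 and 10 µM only. It changed by -2.13 ± 0.25 at 3 µM (adjusted p = 1.69e-08) and -1.63 ± 0.25 at 10 µM (adjusted p = 3.56e-06). LOC106568875, also named as CDC14A-like, rose at every dose from a control median of 18.4, by 1.63 ± 0.35 at 3 µM (adjusted p = 0.000217). Its calls at 3, 10, 30 and 100 µM were all lost in the fit over 72 libraries (adjusted p = 0.113 at 3 µM in that fit). The gene dus18 changed by -2.0 ± 0.68 at 3 µM (adjusted p = 0.0127), a call lost with edgeR, in the fit over 72 libraries and without fish 1 or fish 3 (0.00423 to 0.0963 across the alternatives). The change of cdc14b at 30 µM (0.75 ± 0.28, adjusted p = 0.0275) was 0.46 without fish 5 (adjusted p = 0.208), and it was also lost without fish 2, 3 or 4, under library-size scaling and in the fit over 72 libraries (0.014 to 0.301 across the alternatives). The gene ier3ip1 was lower in 6 of 6 fish at 3 µM (-0.79 ± 0.17, adjusted p = 0.000241).

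Between neighbouring AsIII doses more of these genes rose than fell up to 30 µM, and none rose between 30 and 100 µM. Between 10 and 3 µM 31 of the 92 genes were higher and 11 lower at the higher dose, where 30.3% of all genes passed, 14.6% higher and 15.7% lower. Between 30 and 10 µM 26 were higher and 7 lower, where 21.4% of all genes passed, 9.98% higher and 11.4% lower. Between 100 and 30 µM 0 were higher and 21 lower, where 1.67% of all genes passed, 0.147% higher and 1.53% lower. With the fish as a block 2 were higher and 29 lower (0.671% and 2.83% of all genes). The AP-1 copies LOC106584280 and LOC106613963 fell most in that last step, LOC106584280 with -1.83 ± 0.11 (adjusted p = 2.57e-13) and LOC106613963 with -1.79 ± 0.13 (adjusted p = 9.54e-12). The DUSP5 copy LOC106590170 changed by -1.75 ± 0.19 (adjusted p = 1.1e-07) and fosl1 by -1.74 ± 0.15 (adjusted p = 9.31e-10) in that step. The EGR1 copy LOC106603906 changed by -1.02 ± 0.31, which did not pass (adjusted p = 0.121) and passed with the fish as a block (adjusted p = 2.8e-05). In the step from 10 to 30 µM the KLF11 copy LOC100194692 changed by -1.94 ± 0.23 (adjusted p = 9.49e-08) and the KLF6 copy LOC100196412 by 2.06 ± 0.40 (adjusted p = 0.00037). The AsIII doses share their control libraries, while these steps compare the exposed libraries directly. At 30 µM the 92 genes had 50 rises and 5 falls without fish 5, and at 100 µM 44 rises and 5 falls without fish 1, the fish whose libraries listed many genes at 0. Shares of all genes are not given here for the fits without a fish.

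In arsenate-exposed cells few of these genes changed, and more fell than rose. Of 87 genes tested, none passed at 10 µM (0% of all genes), 1 rose and 9 fell at 50 µM, where 6.97% of all genes passed, 4.23% as rises and 2.74% as falls. At 100 µM 2 rose and 8 fell, where 6.68% of all genes passed, 4.47% as rises and 2.21% as falls. At 10 µM 0 had an unadjusted p under 0.05 by limma, against 0.456% of all genes, and edgeR and DESeq2 called 0. DESeq2 called 16 genes at 50 µM and 18 genes at 100 µM, and its share of all genes is not given here. With 3 libraries a group the counts were sensitive to single fish, and at 100 µM they were 1 without fish 1, 2 without fish 2 and 20 without fish 3. At 50 µM they were 2 without fish 1, 5 without fish 2 and 6 without fish 3. For the fits without a fish no share of all genes is given here. In all 13 genes were called at 50 or 100 µM, 7 of them at both. Calls at either or both doses were not counted over all genes.

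The medians of summed cell type markers differed between the AsV groups as well, with no test made. In AsV controls and at 10, 50 and 100 µM, the medians of the summed normalized counts were 78.3, 137, 473 and 238 for the erythroid genes and 595, 522, 847 and 622 for the leukocyte genes. They were 317, 276, 190.1 and 117 for the biliary genes, 462, 515, 489.8 and 376 for the endothelial genes and 1161, 1131, 964 and 840.4 for the stellate or fibroblast genes. The hepatocyte markers had 3.57e+06, 3.4e+06, 3.15e+06 and 2.91e+06. The part of these other cells in the AsV results was not tested.

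The change furthest from 0 among the called genes was the fall of the KLF6 copy LOC100196412. It had normalized counts in fish 1, 2 and 3 of 1642, 1758 and 2668 in controls, 1201, 1309 and 1927 at 10 µM, 161.1, 243 and 137 at 50 µM and 187, 89.6 and 284 at 100 µM, and the libraries at 50 and 100 µM lay far below the others. It changed by -3.49 ± 0.37 at 50 µM (adjusted p = 0.000289) and -3.55 ± 0.37 at 100 µM (adjusted p = 0.000327), lower in 3 of 3 fish. The copy LOC106567880 moved the other way, at 322, 319 and 335 in controls, 345, 235 and 395 at 10 µM, 664, 412 and 1139 at 50 µM and 1212, 861 and 625 at 100 µM. Its change, named after it was seen, was 1.41 ± 0.34 at 100 µM (adjusted p = 0.0257, higher in 3 of 3 fish; lost without fish 1 or fish 2, 3.67e-05 to 0.396 across the alternatives), against 1.06 ± 0.34 at 50 µM (adjusted p = 0.0801). The other gene that rose was the IER5 copy LOC106574071, at 144, 109.5 and 88.6 in controls, 167.5, 106 and 109 at 10 µM, 497, 621 and 851 at 50 µM and 760.1, 805 and 134 at 100 µM. It changed by 2.51 ± 0.54 at 50 µM (adjusted p = 0.0142) and 1.95 ± 0.54 at 100 µM (adjusted p = 0.0456), where fish 3 stood near the controls, and both calls were lost without fish 1 or fish 2 (9.37e-06 to 0.109 at 50 µM and 0.000107 to 0.388 at 100 µM across the alternatives).

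Genes that fell included phosphatases and Krueppel-like factors. The DUSP8 copy LOC106584592 had 739, 995 and 1093 in controls, 660.4, 931 and 705 at 10 µM, 297, 354 and 269 at 50 µM and 359.9, 289 and 431 at 100 µM and changed by -1.61 ± 0.24 at 50 µM (adjusted p = 0.00187) and -1.39 ± 0.24 at 100 µM (adjusted p = 0.00465), lower in 3 of 3 fish without overlap at both doses. The call at 100 µM was lost without fish 1 or fish 2 (1.38e-06 to 0.0968 across the alternatives). The KLF6 copy LOC106599490 changed by -1.59 ± 0.29 at 50 µM (adjusted p = 0.00664) and -1.67 ± 0.29 at 100 µM (adjusted p = 0.00538), both lost without fish 1 (2.34e-05 to 0.127 at 50 µM and 5.84e-06 to 0.185 at 100 µM across the alternatives). Both genes were named after their values were seen. The DUSP10 copy LOC106571212 had 546, 789 and 857 in controls, 458, 799.9 and 513 at 10 µM, 157.3, 189 and 126 at 50 µM and 145, 122 and 340.3 at 100 µM, with no overlap between the 2 higher doses and controls. It changed by -2.20 ± 0.36 at 50 µM (adjusted p = 0.00373) and -1.97 ± 0.36 at 100 µM (adjusted p = 0.00681), calls that were lost without fish 1 (1.4e-06 to 0.0594 at 50 µM and 3.55e-05 to 0.149 at 100 µM across the alternatives) and at 100 µM also without fish 2. The gene LOC106585187, deposited as CDC14A-like, stood at 797, 329 and 826 in controls, 707, 389 and 937 at 10 µM, 172.3, 83.8 and 70.5 at 50 µM and 124, 90.7 and 292 at 100 µM. It changed by -2.56 ± 0.50 at 50 µM (adjusted p = 0.00889). That call was lost without fish 1 or fish 3, and its call at 100 µM without fish 1 or fish 2 (1.37e-06 to 0.0953 at 50 µM and 0.000132 to 0.377 at 100 µM across the alternatives). The DUSP22 copy LOC106562285 changed by -1.54 ± 0.33 at 50 µM (adjusted p = 0.0137, lost without any one fish; 3.64e-05 to 0.193 across the alternatives) and -1.85 ± 0.33 at 100 µM (adjusted p = 0.00563, lost without fish 1 or fish 2; 1.09e-06 to 0.142 across the alternatives). For ds22a the change at 50 µM was -2.49 ± 0.62 (adjusted p = 0.028), lost without any one fish (0.00123 to 0.232 across the alternatives). For klf7 it was -2.91 ± 0.75 (adjusted p = 0.0321), lost without fish 1 or fish 2 (6.32e-05 to 0.238 across the alternatives). The jun-D copy LOC106599020 changed by -1.71 ± 0.39 at 100 µM (adjusted p = 0.0198, lost without fish 1 or fish 2; 0.000354 to 0.322 across the alternatives).

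Most genes called for AsV were also called at 3 µM AsIII, where 65 of the 92 genes and 54.5% of all genes were called. The compounds have separate control libraries. Of the 10 genes called at 100 µM AsV, 9 were called in the same direction and 0 in the opposite one at 3 µM AsIII, which is 13.8% of the 65 genes called there. At 50 µM AsV it was 8 of 10, or 12.3% of the 65. Of all genes called for AsV and tested for AsIII, 90.7% at 100 µM and 84.7% at 50 µM were called in the same direction at 3 µM AsIII, so these shares are near those of all genes. Against 100 µM AsIII, 4 of the 10 genes called at 100 µM AsV had the same direction and 3 the opposite one. No such share of all genes was counted for 100 µM AsIII. The jun, DUSP1 and DUSP5 copies that rose most with AsIII did not pass for AsV, and some differed between the fish. The DUSP1 copy LOC106604105 had 1383, 1190.0 and 1155 in controls, 1284, 897 and 890.0 at 10 µM, 1851, 1861 and 5406 at 50 µM and 5503, 5765 and 1007 at 100 µM in fish 1, 2 and 3, and fish 3 was highest at 50 µM and lowest at 100 µM. Its change at 100 µM was 1.36 ± 0.57 (adjusted p = 0.18). The DUSP5 copy LOC106590170 had 935, 1631 and 93.5 at 100 µM, against 211, 335 and 99.7 in controls, again with fish 3 apart (1.45 ± 0.98, adjusted p = 0.437). For the AP-1 copy LOC106613963 the values were 2164, 2535 and 787 at 100 µM, against 1283, 1416 and 1138 in controls (0.35 ± 0.37, adjusted p = 0.637), and for the jun-B copy LOC106607038 152.8, 141 and 39.1, against 66.5, 149 and 25.2 (0.58 ± 0.65, adjusted p = 0.668). The library of fish 3 at 100 µM AsV was 1 of those with many genes at 0, and the part of that in these values was not tested.

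No gene of the set passed the test with arsenobetaine. Of 88 genes tested, limma called 0 at 10, 50, 100 and 500 µM, as it called 0% of all genes, and edgeR and DESeq2 called 0 as well. At an unadjusted p under 0.05 there were 2, 2, 3 and 2 genes at the 4 doses, low to high. These were 2.27%, 2.27%, 3.41% and 2.27% of the 88 genes, against 3.1%, 2.13%, 2.8% and 3.33% of all genes. Changes of single genes ran from -2.18 to 3.01, and the lowest adjusted p over the 4 doses was 0.9997. The lowest, median and highest counts of LOC106613963 were 978, 1207 and 2018 at 500 µM, against 971, 1362 and 2335 in AsB controls. For LOC106603906 they were 871, 1682 and 2087 at 500 µM, against 896, 1625 and 2109.9 in AsB controls, and the groups overlapped for both genes. Between the control groups of the 3 compounds no gene passed either, with 0 of 92 genes called in each of the 3 comparisons by limma, edgeR and DESeq2 (0% of all genes). Unadjusted p under 0.05 occurred for 0 genes between AsV and AsIII controls, 5 between AsB and AsIII controls and 2 between AsB and AsV controls. The shares of all genes were 0.635%, 4.12% and 4.04% in the same order. If the compounds were on separate plates, as the label text has it, plate and compound cannot be told apart.

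At matched doses arsenite and arsenate, which differ in the oxidation state of arsenic, gave different responses in 32 of the 92 genes at 10 µM and 31 at 100 µM. Comparisons were made for 7 pairs of compound and dose, each as the difference between the changes against the compounds' own controls, adjusted over all 25830 genes. The AsIII response exceeded the AsV response for 27 genes and lay below it for 5 at 10 µM (6.94% and 3.74% of all genes). At 100 µM it exceeded the AsV response for 28 genes and lay below it for 3 (6.82% and 7.27% of all genes). With the libraries of fish 1 to 3 only, 15 and 3 were called at 10 µM, and the shares of all genes in that fit are not given here. The DUSP5 copy LOC106590170 differed by 5.39 ± 0.75 at 10 µM (adjusted p = 1.76e-07), with 95% limits of 3.90 to 6.89. LOC106613963 differed by 5.04 ± 0.33 (adjusted p = 1.5e-19), LOC106607038 by 4.26 ± 0.76 (adjusted p = 3.48e-05) and the KLF15 copy LOC106583637 by -2.87 ± 0.46 (adjusted p = 3.41e-06). For c-Fos LOC106608294 the difference was 2.75 ± 1.18 with limits of 0.39 to 5.10, and it passed only with the fish as a block (adjusted p = 0.133, or 0.000616 with the block).

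At 100 µM the differences lay in other genes as well. The EGR1 copy LOC106603906 differed by 3.05 ± 0.53 (adjusted p = 2.07e-05), the IER2 copy LOC106590650 by 2.88 ± 0.32 (adjusted p = 3.3e-10) and the KLF6 copy LOC100196412 by 3.19 ± 0.57 (adjusted p = 3.53e-05), all with the AsIII response above the AsV response. The KLF15 copy LOC106583109 differed by -3.04 ± 0.69 (adjusted p = 0.000812) and the KLF6 copy LOC106567880 by -0.98 ± 0.32 (adjusted p = 0.0266), with the AsV response above. Some differences could not be resolved with these libraries. The limits were -0.45 to 2.53 for LOC106590170 (1.04 ± 0.75, adjusted p = 0.426), -2.13 to -0.03 for the IER5 copy LOC106574071 (-1.08 ± 0.53, adjusted p = 0.181) and -0.70 to 1.35 for fosl1 (0.33 ± 0.51, adjusted p = 0.77). The limits are not adjusted for the number of genes. These genes, like those of the next comparisons, were chosen after their values were seen.

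Against arsenobetaine, the AsIII response was above for 33 genes and below for 8 at 10 µM (11.6% and 8.38% of all genes), and above for 25 and below for 4 at 100 µM (7.31% and 5.88%). LOC106613963 differed by 4.96 ± 0.27 at 10 µM (adjusted p = 5.18e-24) and LOC106607038 by 3.97 ± 0.62 at 100 µM (adjusted p = 4.59e-06). At 10 µM the AsV and AsB responses differed for 0 genes by limma (0% of all genes) and 0 by edgeR and DESeq2. An unadjusted p under 0.05 occurred there for 2 genes, against 1.92% of all genes. The AsV response was above for 2 and below for 9 at 50 µM (5.16% and 4.41%), or 4 and 14 with the fish as a block. At 100 µM it was above for 4 and below for 11 (5.81% and 3.97%). At 100 µM 7 genes were called without fish 1 and 9 without fish 2, against 15 with all fish. The shares of all genes are not given here for these fits or for the block. The DUSP1 copy LOC106604105 was among those above AsB at 100 µM (1.33 ± 0.38, adjusted p = 0.015), with the IER5 copy LOC106574071 (2.12 ± 0.53, adjusted p = 0.00397), LOC106567880 (1.13 ± 0.32, adjusted p = 0.0126) and the AP-1 copy LOC106584280 (0.88 ± 0.28, adjusted p = 0.0289). LOC100196412 lay furthest below AsB (-3.43 ± 0.57, adjusted p = 1.86e-05). This fit pools the spread of all 72 libraries, so a gene can pass here that did not pass against its own AsV controls.

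**Figure D5:**
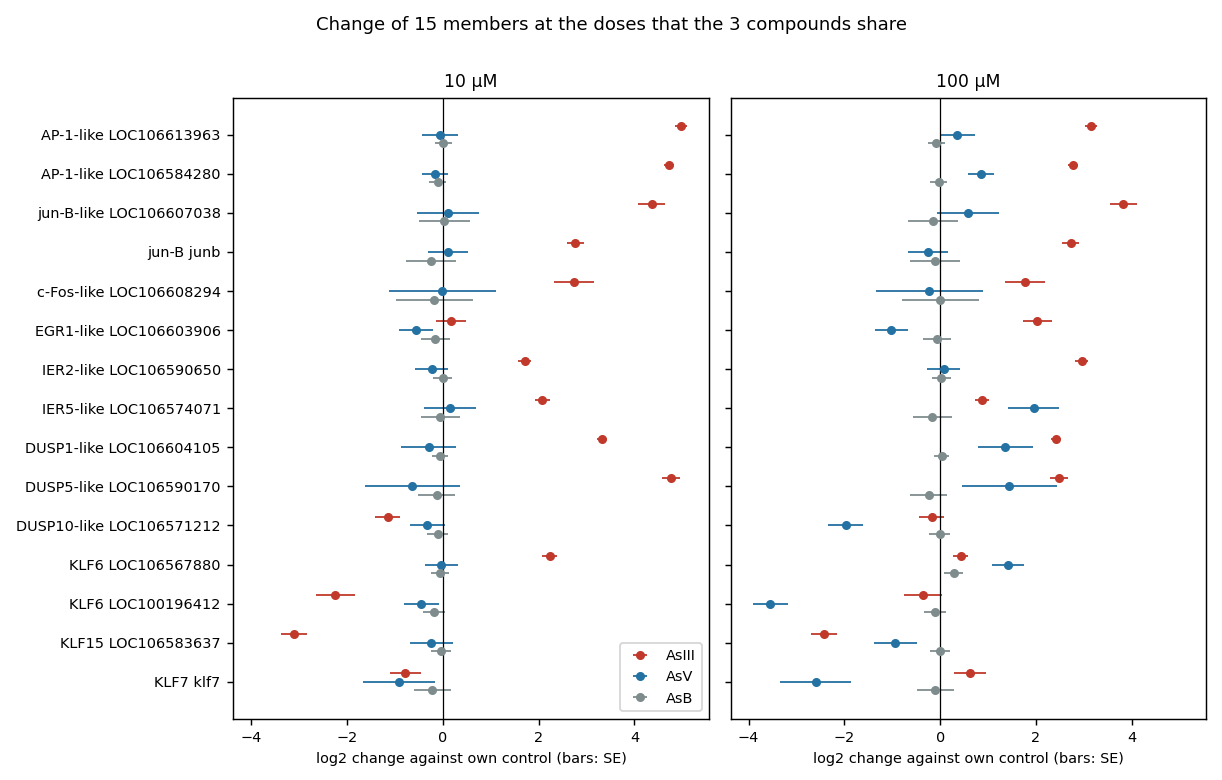
Log2 change against the compound's own control at 10 µM and 100 µM for 15 of the genes, with AsIII, AsV and AsB side by side and bars for the SE. At 10 µM the AsIII changes lie furthest from 0 for 13 of the 15 genes, and at 100 µM the IER5 and KLF6 copies LOC106574071 and LOC106567880 have AsV changes above those of AsIII.

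Genes around these factors in the same pathways were read from lists of names, given here as rises and falls at 3, 10, 30 and 100 µM AsIII. Of all genes 29.5%, 26.8%, 23.9% and 22.6% rose at these doses and 25%, 20.5%, 17.7% and 17.3% fell. Of 31 ATF and Maf proteins, which pair with Jun or Fos, 16, 17, 12 and 9 rose and 2, 2, 0 and 0 fell. The copy LOC106607825 of ATF3, a stress-induced partner of JUN, changed by 3.17, 4.14, 4.93 and 3.39 at the 4 doses (highest adjusted p = 1.66e-18). The MafG copy LOC106601927, which encodes a small Maf protein, changed by 3.76, 4.84, 0.94 and 0.12 and passed at all but 100 µM. Of 64 other immediate early genes, 35, 34, 39 and 30 rose and 14, 6, 1 and 1 fell. Among them the connective tissue growth factor copy LOC106572617 changed by 5.47, 6.28, 4.21 and 1.90, the CYR61 copy LOC106601163 by 3.33, 4.85, 4.53 and 2.71 and the nuclear receptor NR4A1 copy LOC106572532 by 2.96, 3.84, 4.15 and 2.22. The examples were chosen after their values were seen.

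Upstream of the factors both rises and falls occurred. Of 33 genes for serum response factor, CREB and their cofactors and kinases, 16, 15, 16 and 13 rose and 3, 6, 2 and 2 fell. The serum response factor copy LOC106576882, whose product drives FOS and EGR1, changed by 1.12, 2.09, 2.10 and 1.45 (highest adjusted p = 0.000346). Of 27 MAP kinases, 11, 10, 6 and 5 rose and 2, 2, 2 and 2 fell. Of 14 MAP kinase kinases, 4, 1, 1 and 2 rose and 4, 4, 8 and 4 fell. Of 43 kinases further up, 18, 15, 15 and 17 rose and 8, 5, 1 and 1 fell. Of the EGR corepressors 3 could be tested, and the NAB2 copy LOC106583339 changed by 2.06 at 3 µM and 2.08 at 10 µM. Of 9 Sp factors, which share the GC-rich sites of Krueppel-like factors, 1, 2, 1 and 1 rose and 3, 3, 1 and 1 fell.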

How the data were processed

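Messenger RNA of 72 hepatocyte cultures was measured by RNA-seq. The submitters' processing notes name HISAT2, featureCounts, Subread and DESeq2 1.40.2. Not given in the sources used here are the genome build, the annotation and what became of reads with several matches. The deposited values are a normalized signal, which the authors made from read counts divided by a size factor per library. Dividing by the value of 1 read gave whole reads for 100% of the values (tolerance 0.01 of a read), and the sums of these reads are the depths given above. All columns of the table belonged to the 72 libraries. Every gene in it reached 10 in 10 libraries or more.

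The main test was limma 3.58.1 in R 4.3.3 (trend, robust) on log2(value + 1), with a mean per group, over genes that reached 10 in as many libraries as a fit's smallest group holds. Each compound was fitted on its own, and responses and controls in 1 fit over all 72 libraries, which makes 24 comparisons. P-values are 2-sided and adjusted by Benjamini-Hochberg over all genes tested (threshold 0.05). The test was checked on simulated AsIII counts with a common spread, no fish effect and changes only in genes with more reads. That check does not cover changes of genes with few reads or the smaller AsV groups. Alternatives were edgeR 4.0.16 and DESeq2 1.42.0 on the recovered reads, a pseudocount of 10, no filter, library-size scaling, 1 fit over 72 libraries, fish 1 to 3 only, the fish as a block and leaving out each fish. The fold understates changes of genes with few reads.

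The members and lists were chosen with earlier results of these data known, and they carry no adjustment of their own. Named members are, per role and AsIII comparison, up to 4 called members with the largest absolute change that moved the same way in at least 5 of 6 fish, up to 6 for AsV, all copies annotated as jun, jun-B or c-Fos, LOC106607038, and members called in both directions. Others are marked in the text as chosen after their values were seen. Names are those deposited by the authors, and 89 of the 92 were in the RefSeq gene table.

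The labels give the fish number, so that the same number in different groups is the same animal, and the numbers pair the libraries. Same-fish libraries deviated together from their group means, with a mean correlation of 0.313 for AsIII (lowest 0.103), 0.185 for AsV (lowest -0.0939) and 0.139 for AsB (lowest 0.06). Between fish it was -0.0883, -0.19 and -0.061, where removing group means by itself makes values negative. Over 162 pairs of libraries within groups no 2 were copies, with a lowest chi-square per gene of 19.2. No sequences or coordinates were used here.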

Additional observations from a re-analysis of the deposited data

Results flagged for a closer look

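In 270 groups of 6 libraries of 54 named members, 11 had a highest or lowest library whose gap to the nearest other, divided by the group's range, was above Dixon's 95% critical value for 6 values. Chance gives this in about 1 of 20 groups, so 11 of 270 is no more than that share. The DUSP10 copy LOC106571212 had 403 normalized counts in fish 2 at 30 µM AsIII, and 868 to 1201 in the other fish. Fish 3 had 252 for the IER5 copy LOC106574071 at 30 µM AsIII, where the others had 320.0 to 359.7. The IER2 copy LOC106590650 had 6390.4 normalized counts in fish 4 at 30 µM AsIII, and 7695 to 8536 in the other fish. Fish 4 had 437 for the EGR1 copy LOC106603906 at 3 µM AsIII, where the others had 828 to 1087. The c-Fos copy LOC106608293 had 0 normalized counts in fish 4 at 3 µM AsIII, and 11.7 to 36 in the other fish. Fish 3 had 593 for the DUSP1 copy LOC106611914 in AsIII controls, where the others had 849.9 to 1046. cdc14b had 14.9 normalized counts in fish 6 at 10 µM AsIII, and 36.4 to 46 in the other fish. Fish 5 had 156.7 for cdc14b at 30 µM AsIII, where the others had 57.8 to 75. dus18 had 5.98 normalized counts in fish 3 at 30 µM AsIII, and 22.2 to 41.6 in the other fish. Fish 1 had 440.1 for fosb at 3 µM AsIII, where the others had 231 to 276. junb had 2412 normalized counts in fish 2 at 10 µM AsIII, and 2107 to 2172 in the other fish. Fish 4 at 3 µM AsIII and fish 3 at 30 µM AsIII each gave 2 of these values, from 1 library each.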

How the results depend on the processing

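Of 2135 values of named members and comparisons under the alternatives, 2041 stayed on their side of the threshold, 87 lost the call and 7 gained one. Among values with a call in either fit 0 reversed. Changes of direction without a call in either fit were not counted. Calls were lost for 31 of these pairs, which are given with the genes. Calls of other members that enter the counts were lost under some alternatives too, and only some of those are given. Of the counts of called members, the totals of AsIII against controls stayed within 1.5 times under every alternative run, but falls numbered 8 at 30 µM under library-size scaling and with the fish as a block, against 4, and 8 at 100 µM with the block, against 5. From 3 to 10 µM AsIII the count was 27 in 1 fit over 72 libraries, against 42, and from 30 to 100 µM it was 11, against 21. For AsV, DESeq2 gave 16 at 50 µM and 18 at 100 µM, 1 fit over 72 libraries 20 and 19, and leaving out each fish 2 to 6 at 50 µM and 1 to 20 at 100 µM, against 10 and 10. Leaving out a fish leaves AsV groups of 2 libraries. The difference between AsIII and AsV responses at 10 µM gave 18 in fish 1 to 3 only, against 32. The difference between AsV and AsB responses at 50 µM gave 7 in fish 1 to 3 only and 18 with the fish as a block (paired by fish), against 11, and 7 to 11 when each fish was left out; at 100 µM it gave 7 to 16, against 15. With the fish as a block the AsIII counts were 70, 67, 65 and 59 at 3, 10, 30 and 100 µM. Of all genes the block called 61.8%, 56%, 50.9% and 49.6% at these doses. No share of all genes is given for the remaining alternatives other than library-size scaling, nor for the block on the AsV and AsB responses. The cause of these shifts was not tested. Depth limits the EGR2, EGR3 and some jun-B copies, whose controls held few reads, and copy-specific values stay uncertain. The AsV groups of 3 libraries leave wide limits.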

Other observations

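Some of these genes differed between the fish already in control cultures, and for some of them the same fish were high in the controls of 2 compounds. The gene fosb had 306, 179.1, 28.6, 30.7, 149 and 56.1 normalized counts in fish 1 to 6 in AsIII controls and 258, 163.97, 20.5, 32.9, 119 and 51 in AsB controls. The c-Fos copy LOC106571028 had 481, 362, 14.8, 49, 209 and 58.5 in AsIII controls and 395, 326, 19.5, 34, 187 and 67.7 in AsB controls. Both genes, like the c-Fos copy LOC106608294, were higher in fish 1, 2 and 5 than in fish 3, 4 and 6 in both sets. The jun-B copy LOC106607038 showed that split in AsIII controls, with 108, 135, 42.4, 25.8, 96.3 and 43.9, and not in AsB controls, with 70.3, 86.7, 92.2, 55.2, 124 and 60.2. The values were picked after they were seen, no label groups the fish in this way, and no test was made.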
